A study of Homo sapiens with 6 samples.

Results

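Metallothioneins and the zinc response were followed after depletion of the transcription factor SOX4 in MDA-MB-231, an established mesenchymal line of human breast cancer. The set holds 10 of the 31424 gene symbols of the chip, chosen by gene symbol in the deposited probe table: the metallothioneins MT1A, MT1E, MT1F, MT1G, MT1H, MT1M, MT1X and MT2A, the metal-sensing transcription factor MTF1 and the zinc exporter SLC30A1. They are covered by 13 of the 47322 probes of the table. The cells were transduced with 1 short hairpin RNA (shRNA) against SOX4 or with a scrambled shRNA, with 3 Illumina HumanHT-12 v4 arrays per group. All were cultured in DMEM with Glutamax, fetal bovine serum and pen/strep. Only 1 SOX4 hairpin was used, and no label says that the samples of a group were grown apart. Each p-value therefore reflects the scatter among these arrays alone, part or all of which may be technical.

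Metallothioneins are small cysteine-rich proteins that bind zinc, copper and cadmium and buffer the free metal of the cell. When free zinc is high, MTF1 enters the nucleus and binds metal response elements, short promoter motifs, and thereby raises the metallothionein genes and SLC30A1 together. Metallothionein genes are also known to respond to glucocorticoids, to cytokines acting through STAT3 and to heavy metals and oxidative stress. The human genes of the family lie side by side on chromosome 16.

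The promoter letters are shown because the metal response element is the motif the family is known for. RefSeq promoters (assembly GRCh38.p14) matched 5 of the 10 genes. The 250 bases before the gene start are printed on the gene's strand, 5′ to 3′, for both matched metallothioneins that were measured, for MT1H, which was not above background, and for SLC30A1. Capitals mark the cores TGCACNC and TGCGCNC on either strand, overlapping matches being counted separately.
MT2A, chr16:56608334-56608583, plus strand: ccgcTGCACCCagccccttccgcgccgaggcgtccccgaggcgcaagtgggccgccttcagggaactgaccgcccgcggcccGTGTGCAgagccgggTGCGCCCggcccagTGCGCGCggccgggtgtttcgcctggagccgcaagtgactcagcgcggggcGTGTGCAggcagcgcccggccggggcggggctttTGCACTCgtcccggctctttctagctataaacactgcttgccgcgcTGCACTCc
MT1X, chr16:56682220-56682469, plus strand: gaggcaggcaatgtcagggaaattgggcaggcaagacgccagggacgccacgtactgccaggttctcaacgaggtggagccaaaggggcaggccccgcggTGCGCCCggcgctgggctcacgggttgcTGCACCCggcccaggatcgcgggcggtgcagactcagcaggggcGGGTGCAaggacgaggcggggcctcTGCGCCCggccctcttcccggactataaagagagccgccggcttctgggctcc
MT1H, chr16:56669564-56669813, plus strand: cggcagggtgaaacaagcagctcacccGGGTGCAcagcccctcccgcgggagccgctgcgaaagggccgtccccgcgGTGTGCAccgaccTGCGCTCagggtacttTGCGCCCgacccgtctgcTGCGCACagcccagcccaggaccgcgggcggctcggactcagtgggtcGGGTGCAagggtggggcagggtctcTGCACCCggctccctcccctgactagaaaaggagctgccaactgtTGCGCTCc
SLC30A1, chr1:211579162-211579411, minus strand: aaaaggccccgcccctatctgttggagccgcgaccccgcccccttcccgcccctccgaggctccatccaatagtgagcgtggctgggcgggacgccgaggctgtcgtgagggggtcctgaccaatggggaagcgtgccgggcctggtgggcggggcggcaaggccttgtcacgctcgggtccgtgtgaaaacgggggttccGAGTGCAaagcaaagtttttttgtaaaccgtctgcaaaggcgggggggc

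The core was found 7 times before MT2A, 4 times before MT1X, 8 times before MT1H and 1 time before SLC30A1. It was not found in the MTF1 window. Of 35116 promoter windows of this length in RefSeq, 24.8% held at least 1 core and 0.37% held at least 4. A match is a string of letters and does not show binding.

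**Figure D1:**
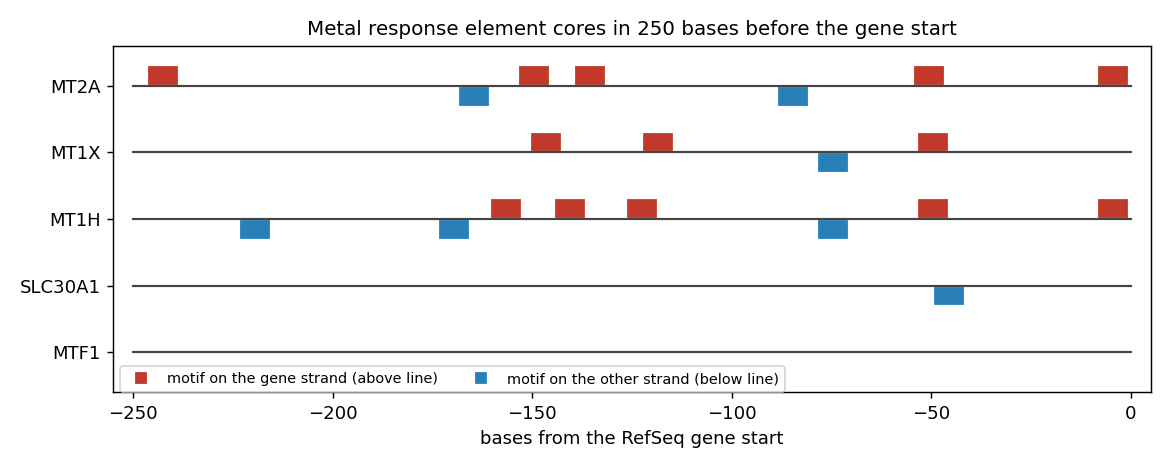
Positions of the metal response element core in the 250 bases before the RefSeq start of the 5 matched genes (x axis, bases from the start; boxes above the line are on the gene strand, boxes below it on the other strand). MT2A carries 7, MT1X 4, MT1H 8, SLC30A1 1 and MTF1 none.

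The arrays were alike in depth of signal: between 15197 and 16187 probes were above background (detection p under 0.01) per array, and the array median was 118.9 to 124.3 on the deposited linear scale. Precision is limited by having 3 arrays per group. The hairpin lowered its target. The SOX4 probe read 136, 155 and 146 on the SOX4 shRNA arrays, where it was above background on 2 of 3, against 290.5, 357 and 336 on the scrambled arrays. The mesenchymal marker VIM was above background on every array, and CDH1, ESR1 and PGR on none. The VIM probes had means of 13059 and 8909 in SOX4 shRNA cells, against 14868 and 10777 in scrambled cells. CD44 was above background on every array by its brightest probe, with means of 5962 and 6053, and on none by its dimmest. The epithelial marker EPCAM was also above background on every array, with a mean reading of 374 in SOX4 shRNA cells and 279 in scrambled cells. Of the 3 ERBB2 probes, 1 was above it on every array, with means of 469 in SOX4 shRNA cells and 438 in scrambled cells. The part of these markers in the results was not tested. The leucocyte markers PTPRC and CD3D, the endothelial markers CDH5 and VWF and the fibroblast markers PDGFRA, DCN and POSTN were likewise above background on no array. LYZ was above it on 2 SOX4 shRNA and 3 scrambled arrays by its brighter probe and on none by the other. PECAM1 was above background on 2 SOX4 shRNA arrays and 1 scrambled array, and COL1A1 on 0 and 1.

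Of the 10 genes, 8 had a probe above background on at least 3 of the 6 arrays, and each of the 8 was above it on every array. Both probes of MT1H, the probe of MT1M and a second probe of MT1E were above background on no array. MT2A, MT1A, MT1X, MT1G and MT1E were lower with the SOX4 hairpin, whereas MT1F, SLC30A1 and MTF1 were higher. The genes were chosen with this comparison in view, so their values are given as a description, without a p. After normalization 5 were lower and 2 higher past the threshold of the fit over all 12451 genes and unnamed probes (limma, adjusted p under 0.05), which 30.6% of all rows passed, 15.4% lower and 15.2% higher. In normalized log2 values all 8 had groups that did not overlap, 5 lower and 3 higher, as had 42.0% of all rows, 21.7% lower and 20.2% higher. Since these genes were chosen on this contrast, nothing is read from those counts.

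**Figure D2:**
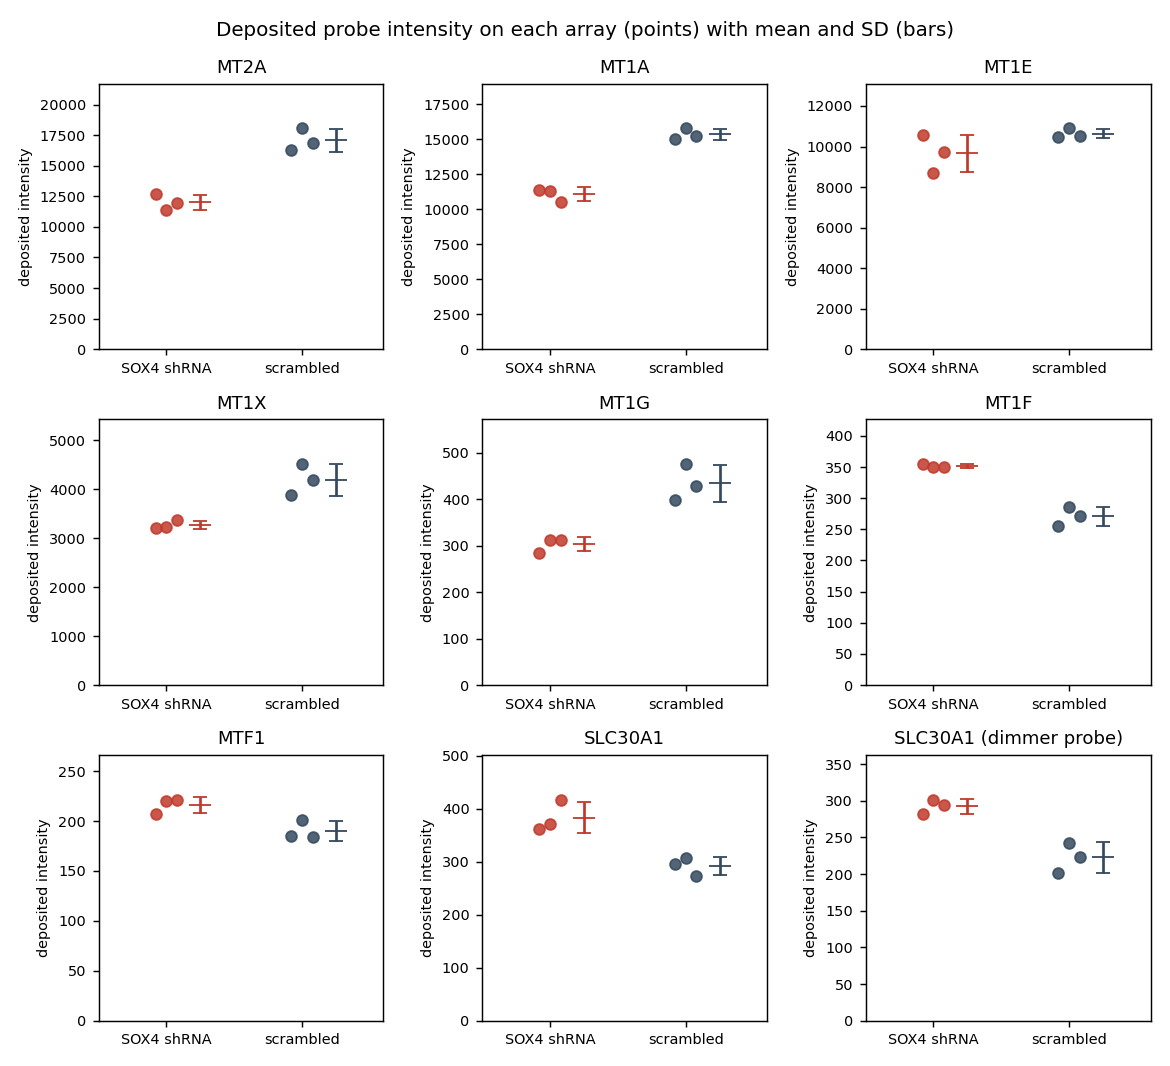
Deposited intensity (y axes, linear, from 0) of the 9 probes above background, 1 panel per probe, on the 3 SOX4 shRNA arrays (left in each panel) and the 3 scrambled arrays (right), with the mean and SD beside the points. MT2A, MT1A, MT1X and MT1G lie lower and MT1F, MTF1 and both SLC30A1 probes higher on all SOX4 shRNA arrays, while MT1E overlaps between the groups.

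MT2A, the most widely expressed human metallothionein, read 12659, 11398 and 11947 on the SOX4 shRNA arrays, against 16273, 18093 and 16872 on the scrambled arrays. Every SOX4 shRNA reading was below every scrambled one. The normalized log2 difference, SOX4 shRNA minus scrambled, was -0.58 ± 0.05 (SE, n = 3 per group), a fold of 0.67. Here and below, the SE is the moderated one of the limma fit. It pools a gene's own scatter over the arrays with that of all rows of like intensity. It can therefore be smaller or larger than the gene's own readings would give. A lower level can come from fewer expressing cells or from less RNA per cell, and in RNA of whole cultures these cannot be told apart.

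MT1A, another zinc- and cadmium-binding member, read 11368, 11319 and 10507 with the SOX4 hairpin, against 15027, 15800 and 15217 with the scrambled one. The groups were again apart. The log2 difference was -0.55 ± 0.05, a fold of 0.685. The highest reading of either gene lay below the array maxima of 24830 to 27070.

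MT1X read 3212, 3230 and 3369 on the SOX4 shRNA arrays, against 3876, 4524 and 4189 on the scrambled arrays, without overlap. Its log2 difference was -0.44 ± 0.05, a fold of 0.74. Among these genes MT1G had the lowest log2 difference, with readings of 285, 313 and 312 in SOX4 shRNA cells, against 398, 477 and 429 in scrambled cells. The log2 difference of MT1G was -0.83 ± 0.09, a fold of 0.56. Its probe is dim, so the value depends on the background correction and was -0.60 without it.

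MT1E did not follow these 4 clearly. Its bright probe read 10560, 8704 and 9705 on the SOX4 shRNA arrays, against 10473, 10918 and 10525 on the scrambled arrays, so that SOX4 shRNA replicate 1 lay within the scrambled range. After normalization the groups were just apart, with a log2 difference of -0.20 ± 0.06. The SD of the log2 values of this probe was 0.14 in SOX4 shRNA cells and 0.03 in scrambled cells. Without SOX4 shRNA replicate 2 the difference was -0.13 and no longer past the threshold. In the authors' log2 values, which hold 1 row per gene, MT1E had means of 8.03 in SOX4 shRNA cells and 7.93 in scrambled cells, a difference of 0.097 in the other direction. These means lie between those of the bright probe (13.2 and 13.4 after normalization) and the dim one (4.67 and 4.53). The dim probe was above background on no array. How the authors joined the probes was not tested. The mean of the bright and the dim probe in the normalized values gave -0.0264, an alternative added after seeing the data.

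MT1F stood against the other measured metallothioneins. It read 355, 351 and 350 with the SOX4 hairpin, against 255, 286 and 271 with the scrambled one. The SOX4 shRNA readings lay above all scrambled readings, and their SD was 2.8. The log2 difference was 0.44 ± 0.09, a fold of 1.36, and 0.30 without background correction. Metallothionein transcripts are highly similar, and whether a probe also reads a relative was not tested here. This holds for every metallothionein probe, the bright ones of MT2A, MT1A and MT1E included, so their differences may not be separate observations.

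MT1H and MT1M could not be compared. The MT1H probes read between 112 and 129 on the SOX4 shRNA arrays and between 105 and 119 on the scrambled arrays. The MT1M probe read 121, 115 and 125 with the SOX4 hairpin and 115, 136 and 124 with the scrambled one. These readings are at the level of the array medians. The authors' deposited table nevertheless lists folds of 1.33 for MT1H and 0.64 for MT1M, both of which rest on probes that were above background on no array.

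MTF1, the transcription factor that senses zinc, differed little. Its probe read 207, 220 and 221 on the SOX4 shRNA arrays and 185, 201 and 184 on the scrambled arrays. The readings did not overlap, but the log2 difference was 0.23 ± 0.12, a fold of 1.17, and it was not past the threshold of the fit. Without background correction the difference of this dim probe was 0.116. SLC30A1, which moves zinc out of the cytosol, read 362, 371 and 417 in SOX4 shRNA cells, against 296, 307 and 273 in scrambled cells. The groups were apart, and the log2 difference was 0.44 ± 0.09, a fold of 1.35, and 0.307 without background correction. The second SLC30A1 probe, with 282, 302 and 294 against 201, 243 and 224, gave 0.53 ± 0.11. The exporter and most measured metallothioneins, which are known as joint targets of MTF1, differed in opposite directions, while MT1F ran with the exporter. The part of MTF1 or of zinc in these differences was not tested.

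The authors' deposited table, whose fold column is headed with another hairpin's name although a header line names the SOX4 hairpin samples, gave the same directions for 7 of the 8 measured genes. It was read as the SOX4 comparison because its log2 folds followed the authors' per-array values (r = 0.996 across 22259 genes, which are not independent replicates). Its folds thus rest on the same samples, and the genes were chosen on this contrast, so nothing is read from the shared directions. In the authors' deposited table the folds were 0.68 for MT2A, 0.70 for MT1A, 0.73 for MT1X and 0.54 for MT1G. The same deposited table lists 1.40 for MT1F, 1.45 for SLC30A1, 1.21 for MTF1 and 1.07 for MT1E, the last being the exception. The authors' log2 values of MT1E lie between those of its bright probe and of a probe above background on no array.

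In the order of the genes on chromosome 16 (RefSeq, used for order only), the differences did not run in a gradient. MT1F, higher with the SOX4 hairpin, is the nearest measured metallothionein to MT1G, the one with the lowest difference, and lies between MT1A and MT1G. Of the 3 nearest measured genes on either side of the family, 5 did not pass the threshold. BBS2 and OGFOD1, next to the family on the MT2A side, had log2 differences of 0.06 ± 0.10 and -0.01 ± 0.07, and NUP93, next to MT1X, had 0.08 ± 0.07 (SE, n = 3 per group; adjusted p = 0.686, 0.927 and 0.407, limma). The sixth, NUDT21, a subunit of a pre-mRNA cleavage factor, fell by 0.33 ± 0.08 on the log2 scale (adjusted p = 0.00255, limma).

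**Figure D3:**
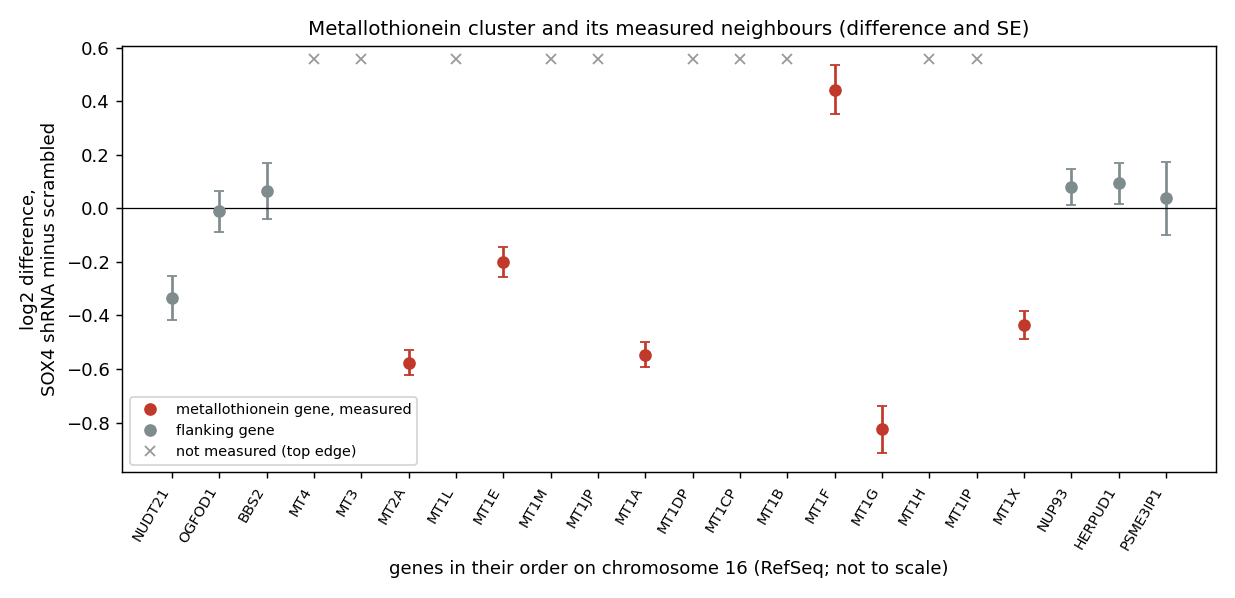
Log2 difference, SOX4 shRNA minus scrambled, with its SE (y axis) for the metallothionein genes and 3 measured genes on either side, in their order on chromosome 16 (x axis, not to scale; crosses at the top edge mark genes with no measured row). MT1F at 0.44 stands beside MT1G at -0.83, and most flanking genes lie near 0.

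Probes that carry older names of family members added 2 measured rows. All 7 further metallothionein genes of the chosen list that are on the chip by symbol, among them MT1B, MT3 and MT4, were above background on no array. A probe named MTE, a synonym of the transcribed pseudogene MT1IP in RefSeq, was looked up after the values were seen. It read 1334, 1407 and 1342 in SOX4 shRNA cells, against 1679, 1703 and 1634 in scrambled cells. These groups were apart, with a log2 difference of -0.42 ± 0.06. The probe that carries the name MT1IP itself was above background on no array. A probe named C20ORF127, a synonym of the pseudogene MT1P3 on chromosome 20, was found in the same way. It read 1382, 1211 and 1114 in SOX4 shRNA cells, against 1163, 1367 and 1221 in scrambled cells. Its groups overlapped, and the log2 difference of -0.12 ± 0.08 was not past the threshold.

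The genes nearest to MT2A and to MT1X over the 6 arrays were taken by the Euclidean distance between centred log2 values, as a description with no test. MT2A was nearest to C6ORF52, FAT1, LOC728431, C8ORF40 and TMX4, at distances of 0.060 to 0.111. MT1A lay at 0.142 from MT2A, with 17 of the 12061 other named genes nearer, and MT1X at 0.209, with 103 nearer. MT1G had 771 other genes nearer to MT2A than itself, MT1E 1588, MTF1 9464, MT1F 11072 and SLC30A1 11135. MT1X was nearest to PTP4A2, ATM, TNC, HSD17B8 and ZNF185, at 0.055 to 0.080. Of the other genes, 290 were nearer to MT1X than MT2A was, 345 than MT1A, 1725 than MT1E and 3505 than MT1G, while MTF1 had 9144, MT1F 10999 and SLC30A1 11060 nearer. All 6 arrays fall into the same groups, so these distances mainly compare the group difference.

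Of 16 measured genes among the 23 remaining members of the SLC30A exporter and SLC39A importer families, 1 rose and 2 fell, 18.8% against 30.6% of all rows, and 7 had groups that did not overlap, as had 42.0% of all rows. This list and those below were chosen with earlier results of these data known, so their shares and p-values are a description only. The difference between a list's share and that of all rows was not tested for any list. Their median log2 difference was 0.09, against -0.01 for all rows. SLC39A1, a zinc importer of the cell surface, fell by 0.84 ± 0.06, with readings of 968, 961 and 1064 in SOX4 shRNA cells, against 1528, 1691 and 1631 in scrambled cells (adjusted p = 4.33e-11, limma). The groups were far apart. SLC30A9 fell by 0.25 ± 0.07 (adjusted p = 0.00614, limma). SLC39A4, the intestinal zinc importer, rose by 0.35 ± 0.12 (adjusted p = 0.0332, limma). This call did not hold when SOX4 shRNA replicate 1 (0.374) or 2 (0.28) or scrambled array 2b (0.259) was left out, or in the authors' values (0.209). Leaving out an array also leaves fewer arrays for the fit. Here and below, a call lost in that way therefore need not mean a smaller difference. SLC39A10, which MTF1 is known to repress in mouse cells, had a difference of 0.18 ± 0.11 and did not pass (adjusted p = 0.234, limma).

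Copper handling genes included 4 of 13 measured that rose and 0 that fell, 30.8% against 30.6% of all rows, with a median log2 difference of 0.08. The call with the largest difference was SLC31A2, a transporter linked to copper release from endosomes and lysosomes. It read 1254, 1185 and 1248 with the SOX4 hairpin, against 528, 631 and 646 with the scrambled one. Every SOX4 shRNA reading was above every scrambled one, and SLC31A2 rose by 1.07 ± 0.07 on the log2 scale (adjusted p = 1.56e-11, limma). CCS, the copper chaperone of superoxide dismutase, COMMD1 and SCO1 rose by 0.30, 0.21 and 0.18 (adjusted p = 0.0272, 0.0184 and 0.0401, limma). CCS lost its call without SOX4 shRNA replicate 2 or 3 or scrambled replicate 1 (0.22 to 0.294). Its kept probes ran from 0.30 to 0.45. COMMD1 lost it without SOX4 shRNA replicate 1 or scrambled array 2a (0.162 and 0.195), and SCO1 without SOX4 shRNA replicate 1 or 2 or either scrambled array 2a or 2b (0.142 to 0.178). The copper importer SLC31A1 and the chaperone ATOX1 had differences of -0.02 ± 0.11 and -0.03 ± 0.05 and did not pass (adjusted p = 0.931 and 0.674, limma).

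**Figure D4:**
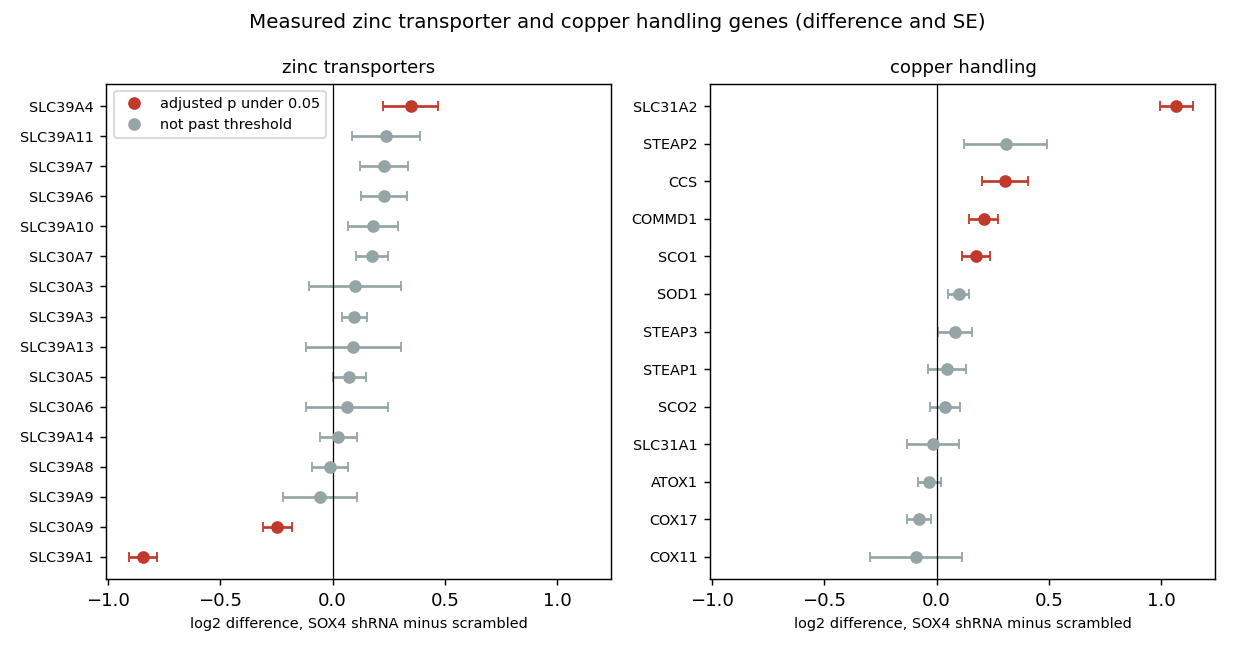
Log2 difference, SOX4 shRNA minus scrambled, with its SE (x axes) for the 16 measured zinc transporters (left) and the 13 measured copper handling genes (right), ordered by size; coloured points passed an adjusted p under 0.05. SLC39A1 at -0.84 and SLC31A2 at 1.07 lie away from the other genes.

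Metal and oxidative stress genes split. Of 13 measured, 3 rose and 3 fell (46.2% against 30.6% of all rows; median log2 difference 0.08). Haem oxygenase, HMOX1, which cadmium and oxidants are known to induce, rose by 0.50 ± 0.13, the thioredoxin reductase TXNRD1 by 0.37 ± 0.06 and the autophagy receptor SQSTM1 by 0.31 ± 0.05 (adjusted p = 0.00477, 9.25e-06 and 7.95e-05, limma). The quinone reductase NQO1 fell by 0.38 ± 0.05 (adjusted p = 4.25e-06, limma). The subunits of glutathione synthesis, GCLM and GCLC, fell by 0.28 and 0.29 (adjusted p = 0.00644 and 0.0392, limma). GCLM lost its call without SOX4 shRNA replicate 3 or scrambled array 2a (-0.192 and -0.232), and GCLC with any 1 array left out except scrambled array 2b (-0.305 to -0.245). HMOX1 did not pass without the intensity trend, nor NQO1 in the authors' values. The placental growth factor gene PGF was not above background on enough arrays to be measured.

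Of 13 measured heat shock genes, 3 rose and 1 fell (30.8% against 30.6% of all rows; median log2 difference 0.12), and 7 had groups that did not overlap, as had 42.0% of all rows. The small heat shock protein HSPB1 rose by 0.23 ± 0.06 and the mitochondrial chaperones HSPD1 and HSPE1 by 0.24 ± 0.05 and 0.26 ± 0.07, while the co-chaperone DNAJB1 fell by 0.22 ± 0.07 (adjusted p = 0.00268, 4.64e-04, 0.00593 and 0.0182, limma). HSPE1 lost its call without SOX4 shRNA replicate 3 or scrambled replicate 1 (0.169 and 0.177), and DNAJB1 without SOX4 shRNA replicate 2, scrambled replicate 1 or scrambled array 2a (-0.207 to -0.172). HSPB1 did not pass without the intensity trend, nor HSPD1 in the authors' values. The kept probes of HSPD1 disagreed, the smallest difference being -0.07, and those of HSPE1 ran from 0.26 to 0.52. HSPA1A and HSPA1B, the stress-induced chaperones, are near-identical copies whose probes may share signal. Both had differences of 0.15 and did not pass (adjusted p = 0.15 and 0.0696, limma).

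Glucocorticoid response genes did not share a direction. Of 9 measured, 2 rose and 3 fell (55.6% against 30.6% of all rows; median log2 difference -0.19). FKBP5, a co-chaperone of the glucocorticoid receptor, rose by 0.53 ± 0.06 and the transcription factor CEBPD by 0.58 ± 0.09 (adjusted p = 5.53e-07 and 8.59e-06, limma). KLF9, a transcription factor, fell by 0.67 ± 0.09, ERRFI1 by 0.54 ± 0.05 and TSC22D3, the glucocorticoid-induced leucine zipper, by 0.40 ± 0.11 (adjusted p = 3.53e-06, 2.47e-08 and 0.0058, limma). TSC22D3 did not pass in the authors' values. The receptor itself, NR3C1, had a difference of -0.24 ± 0.11 and did not pass (adjusted p = 0.114, limma).

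In the STAT3 and IL6 receptor list 5 of 12 measured genes rose and 2 fell (58.3% against 30.6% of all rows; median log2 difference 0.07). BCL3, an NF-kB cofactor, rose by 0.68 ± 0.11 and the kinase PIM1 by 0.62 ± 0.11 (adjusted p = 3.68e-05 and 6.36e-05, limma). SOCS1, a feedback inhibitor, rose by 0.45 ± 0.16 and STAT3 by 0.22 ± 0.08, while MCL1 fell by 0.24 ± 0.07 and the kinase TYK2 by 0.18 ± 0.07 (adjusted p = 0.0299, 0.0351, 0.0116 and 0.0427, limma). These last 4 calls were each lost with at least 1 array left out. SOCS1 lost its call without SOX4 shRNA replicate 1 or 3, scrambled replicate 1 or scrambled array 2a (0.313 to 0.45), and STAT3 without SOX4 shRNA replicate 1 or 3 or scrambled replicate 1. MCL1 lost it without SOX4 shRNA replicate 2 or scrambled array 2a (-0.208 and -0.193), and TYK2 with any 1 array left out except SOX4 shRNA replicate 1 (-0.202 to -0.138). The kept probes of STAT3 ran from 0.02 to 0.22 and those of MCL1 from -0.24 to -0.02. Neither gene passed as the mean of its kept probes (0.114 for STAT3 and -0.132 for MCL1) or in the authors' values (0.0703 for STAT3 and -0.137 for MCL1). SOCS3, a classical STAT3 target, had a difference of -0.19 ± 0.20 and did not pass (adjusted p = 0.516, limma). Its probe was dim, with 138, 133 and 160 in SOX4 shRNA cells against 145, 144 and 143 in scrambled cells. It was above background on only 2 SOX4 shRNA arrays, so nothing is read from that result.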

How the data were processed

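Linear probe intensity values without background subtraction or normalization were deposited by the authors, and each has its deposited detection p-value. GenomeStudio 2011.1 is named in the submitters' processing notes. Deposited log2 values per gene symbol and a deposited table of linear fold came from RMA in ArrayStar, per the file headers. A pair of the 3 scrambled intensity columns carry the heading of replicate 2 and are called 2a and 2b. The number of per-sample columns left out was 0.

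Intensities were normalized with neqc (limma 3.58.1, R 4.3.3, offset 16). A probe was kept if its detection p was below 0.01 on 3 or more of the 6 arrays, which held for 15717, and the brightest stood for its symbol, leaving 12451 rows. SOX4 shRNA was set against scrambled shRNA by lmFit and trended eBayes, with Benjamini-Hochberg adjustment over all rows at 0.05. The fit was also run on simulated data with independent noise, a simpler case than these arrays, and nothing is read from that run here. Alternatives covered background, normalization, filter, probe choice, trend, the authors' values and each array left out. Named genes are the 10 genes, SOX4, up to 4 raised and 4 lowered per list with no overlap between groups, and the 5 nearest to MT2A and to MT1X. Flanking genes and list genes that did not pass were named after their values were seen. The members and lists were chosen with earlier results of these data known. Plots used matplotlib 3.10.9 and Python 3.11.15.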

Additional observations from a re-analysis of the deposited data

How the results depend on the processing

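For MT2A, MT1A, MT1X, MT1G, MT1F and SLC30A1 the direction and the side of the threshold were kept under all 17 alternatives, and MTF1 stayed higher and short of the threshold under all 17. For a gene with 1 probe, the detection filter, probe choice and trend cannot change the difference, so its direction there was fixed. The members were chosen on this contrast, so nothing is read from the side of the threshold. With 1 array left out, the log2 difference ran from -0.616 to -0.544 for MT2A, -0.568 to -0.501 for MT1A and -0.467 to -0.404 for MT1X. It ran from -0.872 to -0.777 for MT1G, 0.414 to 0.467 for MT1F, 0.188 to 0.263 for MTF1 and 0.367 to 0.489 for SLC30A1. Over the other settings these last genes, whose probes are dim, ran wider. The ranges there were -0.898 to -0.598 for MT1G, 0.301 to 0.492 for MT1F, 0.116 to 0.283 for MTF1 and 0.307 to 0.547 for SLC30A1. They were -0.578 to -0.568 for MT2A, -0.547 to -0.534 for MT1A and -0.443 to -0.426 for MT1X. MT1E ran from -0.271 to -0.129 with 1 array left out, and its direction turned in the authors' values, with and without the replicate block (0.0971 in both). Those values lie between the bright probe of MT1E and a dim probe above background on no array. Leaving out SOX4 shRNA replicate 2 ended the call of MT1E, as did dropping the intensity trend (-0.201) and the mean of all probes (-0.0264). Over all rows 3807 genes changed, against 2533 in the authors' values, 2278 there with the replicate block and 2399 with the mean of all probes and no detection filter, a setting chosen after seeing the data. With 1 array left out the count was 3080 to 3240. Of the listed genes 29 changed, against 17, 16 and 17 in those settings, 16 without the intensity trend and 21 to 25 with 1 array left out. Of 28 named list genes, 16 kept their call with each array left out and 12 did not, and 11 kept it under every alternative. Fits with an array left out have fewer arrays, so a lost call there need not mean a smaller difference. The replicate number as a block could be fitted only in the authors' values, because a pair of intensity columns share a heading. Same-numbered samples did not deviate together there (correlations of 0.00326, 0.00225 and -0.0091 over 22963 genes). No slide is named in the files used here, so a slide block was not run. Dim probes near the array medians limit what can be said of MT1H and MT1M.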
